A study of Mus musculus with 8 samples.

Results

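The 32 genes described here encode the contractile and Z-disc proteins that distinguish fast from slow skeletal muscle fibres, together with a few sarcomere proteins common to both. They were listed by gene name, and the rule that picked them used no measured value, although earlier results of these data were known when the list was made. All 32 were present among the 22173 genes of the deposited table, and all 32 were among the 12963 genes that passed the filter on low counts. The samples were skeletal muscle from 8 diet-induced obese C57BL/6 mice, with 1 library per mouse. The liraglutide group (4 libraries) came from 24-week-old obese mice injected under the skin with liraglutide, which activates the GLP-1 receptor, over 9 weeks, at a daily dose of 0.2 mg/kg, and the model group (4 libraries) came from obese mice of the same age given normal saline. Each study group held 8 mice. The labels name neither the muscle sampled nor a lean group, so both groups share the obese state and the fibre make-up of the tissue had to be read from the transcripts themselves.

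A sarcomere is built from thick filaments of myosin and thin filaments of actin, anchored at the Z-disc. Each myosin carries a heavy chain, the motor that sets shortening speed, and an essential and a regulatory light chain. Calcium switches contraction on by binding troponin C, which moves troponin I and troponin T with tropomyosin along actin. Most of these proteins exist as a slow form and a fast form from separate genes, and adult mouse fibres are typed by the heavy chain they hold: Myh7 in slow type I fibres, Myh2 in fast 2A, Myh1 in fast 2X and Myh4 in fast 2B fibres, in order of increasing speed. In bulk muscle, fewer fibres of a type and less transcript per fibre cannot be told apart.

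Library totals were 17133476 to 18244579 counts with liraglutide and 15033631 to 16622716 with saline, of which the 32 genes took 21.1% to 22.3% and 20.5% to 20.9%. FPKM, the deposited level per length of gene and per library total, is used below for levels within a library. Log2 fold changes are liraglutide minus model from edgeR with TMM scaling, whose factors were 0.954 to 0.988 in the liraglutide and 1.02 to 1.03 in the model libraries, so a fold change can sit slightly above the ratio of mean FPKM. A gene is said to have risen or fallen when its Benjamini-Hochberg adjusted p over all tested genes was under 0.05. The 8 markers of skeletal muscle fibres were all present. They summed to 204665 to 219627 CPM (counts scaled to library size) with liraglutide and to 199198 to 202798 CPM with saline. Of them 5 were called higher (Acta1, Actn3, Mylpf, Ckm and Atp2a1) and 0 lower, where 49.0% of tested genes with a mean of at least 100 FPKM were called higher. Acta1, Actn3, Mylpf, Myh4 and Tnnt3 are also among the 32 genes, so the marker sum is not separate from them. The 8 heart markers summed to 148 to 224 CPM with liraglutide and 189 to 226 CPM with saline. Of the 3 tested, 0 were called higher and 0 lower. Actc1 had 2476 to 3818 counts with liraglutide and 2780 to 3618 with saline, and Tnnt2 had 44 to 61 and 24 to 47. Nppa and Myl7 had 0 counts in every library, and Nppb had 2 counts in liraglutide 4 and 0 elsewhere. The 8 adipocyte markers summed to 1259.5 to 1719 CPM with liraglutide and 1803 to 2702 CPM with saline, with 6 of them lower and 0 higher. None of the 8 was at 0 throughout. The 10 epididymis markers had 8 of the 9 tested lower. Without Crisp1, the other 9 summed to 4 to 33 counts with liraglutide and 392 to 915 counts with saline, while Crisp1 alone had 2635 counts in liraglutide 2, against 2 to 20 in the other liraglutide libraries and 59 to 143 with saline. The 7 tendon markers summed to 242 to 558 CPM with liraglutide and 168 to 276 CPM with saline, and Chad and Comp were called higher and 0 lower. None of the 7 was at 0 throughout. The part of these other tissues in the changes given below was not tested.

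The heavy chains typed all 8 libraries as muscle dominated by 2B fibres. Myh4 gave 86.8% to 89.6% of the summed FPKM of the adult chains Myh7, Myh2, Myh1 and Myh4 in every library. Myh1 gave 5.89% to 7.22%, Myh2 3.16% to 4.96% and Myh7 0.656% to 1.78%. The order of the chains, Myh4 then Myh1 then Myh2 then Myh7, was the same in each of the 8 libraries. In the 9-chain sum that adds Myh3 (embryonic), Myh8 (perinatal), Myh13 (extraocular), Myh6 (cardiac) and Myh7b (an ancient slow-type chain), the most that any of the added chains gave was 0.0251%, by Myh3 in liraglutide 3.

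**Figure D1:**
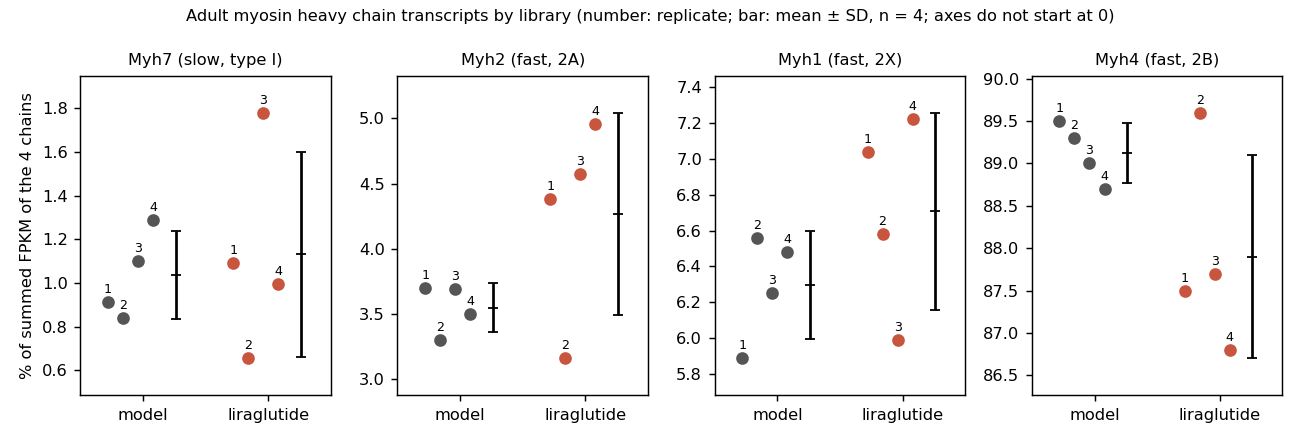
Percent of the summed FPKM of 4 adult myosin heavy chains contributed by each chain, with 1 point per library (number: replicate), and the group mean ± SD (n = 4) beside the points. Axes do not start at 0. Myh2 lies between 4.38% and 4.96% in liraglutide 1, 3 and 4, above all model libraries, while liraglutide 2 lies at 3.16%, below them.

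Myh4 stood at 10149.9, 11129, 10034 and 10345 FPKM in liraglutide 1 to 4 and at 10689, 11311, 11210.5 and 10770.2 FPKM in model 1 to 4. Liraglutide 2 lay within the model range and the other liraglutide libraries lay below it. After scaling, the log2 fold change was -0.0031 ± 0.0358 (SE, edgeR adjusted p = 0.968), and its sign turned with the scaling: it was 0.0034 with RLE factors, -0.079 with raw library sizes and -0.18 under quantile normalization, where Myh4 was called lower (limma adjusted p = 0.000392). Quantile normalization gives each rank a fixed value. Tnnc2 lay above Myh4 in every liraglutide library and below it in every model library. Tnnc2 took the same value there with the opposite sign (0.18) and the same adjusted p by limma. That call therefore marks an exchange of ranks and does not measure a fall of Myh4. As a share of the adult chains Myh4 was 87.9% ± 1.2 with liraglutide and 89.1% ± 0.343 in the model group (SD, n = 4), and the groups overlapped.

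Myh2, the 2A chain, stood at 508, 392, 523 and 591 FPKM in liraglutide 1 to 4 and at 442, 417, 465 and 425 FPKM in model 1 to 4. In 3 of the 4 liraglutide libraries it exceeded every model library, and in liraglutide 2 it was below them all. The log2 fold change of 0.28 ± 0.107 (SE) did not pass (edgeR adjusted p = 0.127). Without liraglutide 2 it passed, at 0.40 (adjusted p = 0.00613). Myh1, the 2X chain, stood at 816, 818, 685 and 861 FPKM with liraglutide and 703, 831, 787 and 786 FPKM with saline. Its groups overlapped (log2 fold change 0.11 ± 0.0688, adjusted p = 0.356). Myh2, Myh1 and Myh4 lie side by side on mouse chromosome 11 between Myh3 and Myh8 in RefSeq's annotation of GRCm38.p6. Their messages are similar: of all 50-base windows of the longest coding transcript in the GENCODE annotation, 26.9% of Myh2, 26.7% of Myh1 and 18.9% of Myh4 occurred exactly in another heavy chain. How the counting divided such reads is not given in the sources used here, so levels of the minor chains beside the abundant Myh4 are uncertain to that extent.

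The slow chain Myh7 stood at 127, 81.5, 204 and 119 FPKM in liraglutide 1 to 4 and at 109, 106, 138 and 156 FPKM in model 1 to 4. Liraglutide libraries held both the highest and the lowest value, 2.5-fold apart, with the model libraries between. The log2 fold change was 0.14 ± 0.247 (SE, edgeR adjusted p = 0.77), and without liraglutide 3 it was -0.15. Myh7b was low, at 0.805, 0.754, 1.07 and 0.828 FPKM with liraglutide and 0.986, 0.6, 0.961 and 0.834 FPKM with saline (adjusted p = 0.749). Myh6, the heart's fast chain and the neighbour of Myh7 on chromosome 14, stood at 0.504, 0.578, 0.686 and 0.873 against 0.636, 0.367, 0.612 and 0.606 FPKM (adjusted p = 0.4), with 22.6% of its 50-base windows shared with Myh7.

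Slow members varied together from mouse to mouse, and the groups overlapped for all 11 of them. Of the 11 slow members, 10 had a mean of at least 1 FPKM: Myh7, the ventricular and slow light chains Myl2 and Myl3, the minor slow light chain Myl6b, slow troponins T, C and I (Tnnt1, Tnnc1, Tnni1), Tpm3 (slow tropomyosin), Mybpc1 (slow myosin-binding protein C) and Myoz2 (slow calsarcin, a Z-disc partner of calcineurin). All 10 were highest in liraglutide 3, and 7 were lowest in liraglutide 2. Within the model group all 10 were highest in model 4, and 7 were lowest in model 2. Relative to each gene's mean over the 8 libraries, the median of the 10 genes was 1.48 in liraglutide 3, 1.23 in model 4, 1.06 in model 3, 1 in liraglutide 1, 0.928 in liraglutide 4, 0.853 in model 1, 0.756 in model 2 and 0.688 in liraglutide 2.

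**Figure D2:**
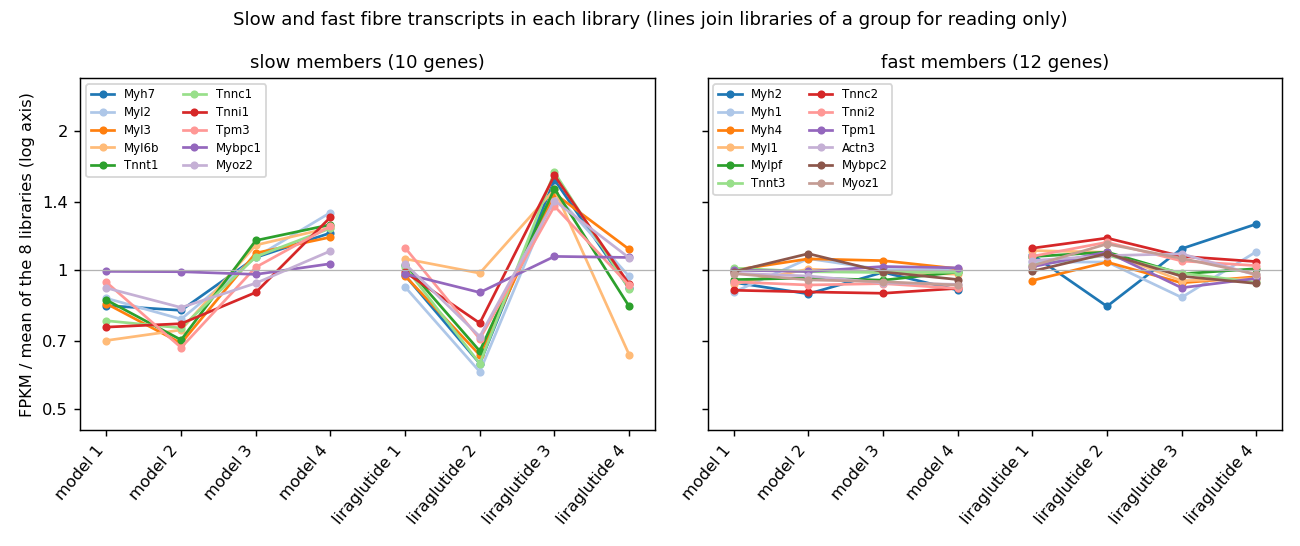
FPKM of each slow member (left, 10 genes of mean FPKM 1 or more) and fast member (right, 12 genes) in each library, divided by the gene's mean over the 8 libraries, on a log axis; lines join libraries of a group only to guide the eye. Slow genes peak together in liraglutide 3 and dip in liraglutide 2. Fast genes stay closer to 1, although Myh2, the most variable of them with liraglutide, also dips in liraglutide 2.

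The spread was several times that of the fast members. The median coefficient of variation of the 11 slow members was 33% in the liraglutide group and 24% in the model group, that of the 12 fast members was 6.11% and 2.55%, and that of all 12963 tested genes was 11% and 9.23%. Tnnc1, slow and cardiac troponin C, shows the pattern, at 179, 111, 288 and 161 FPKM in liraglutide 1 to 4 and 137, 132, 189 and 217 FPKM in model 1 to 4. The groups overlapped, and so did those of Tnnt1 at 105 to 237 against 111 to 198 FPKM and of Tnni1 at 29.1 to 60.8 against 28.5 to 49.3 FPKM. Myl3 ran from 132 to 296 FPKM with liraglutide and from 140.3 to 238 FPKM with saline, Myl2 from 53.2 to 129.7 against 69.2 to 118 FPKM and Myl6b from 7.22 to 16.5 against 7.75 to 13.6 FPKM. Tpm3 ran from 20.6 to 39.9 against 19.7 to 36.1 FPKM and Myoz2 from 51.9 to 102 against 60 to 79.5 FPKM. Mybpc1 varied least of the slow members, at 463 to 554 against 506 to 534 FPKM. Counts for Tpm3 are of the whole gene and also hold its non-muscle isoforms, whose share was not measured.

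None of the slow members passed the test. By edgeR 0 of 11 were called in either direction at adjusted p values of 0.432 (Myoz2) to 0.926 (Myl2), with standard errors of 0.0617 to 0.271 on the log2 scale. Unadjusted, the lowest p of a slow member was 0.209, so 0 passed 0.05, and DESeq2, limma and the other alternatives called 0 as well. All 11 log2 fold changes were positive, from 0.048 (Myl2) to 0.29 (Tnni1), against 47.8% of all tested genes with a positive value, but the signs were not stable. Without liraglutide 3, 7 of the 11 were negative (Myh7, Myh7b, Myl2, Myl6b, Tnnc1, Tnnt1 and Tpm3), and their median went from 0.17 to -0.012. Without model 2, Myh7b, Myl2 and Tnnt1 were negative, and without model 1 Myl2 was. Quantile normalization made 5 negative (Mybpc1, Myh7, Myl2, Tnnc1 and Tnnt1), limma on log2(FPKM + 1) 3 (Myh7, Myl2 and Tnnt1), raw library sizes Myl2 and the length offset Tnnt1. The median was 0.33 without liraglutide 2, 0.31 without model 4 and 0.081 without model 2.

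Ratios of counterpart forms within a library, which do not depend on how libraries are scaled, separated the groups for 0 of 12 pairs. Some pairs differ in gene length, such as Tnni1 at 2655 bases and Tnni2 at 724. The length trend described below was not removed from these ratios. Most pairs set a slow form against a fast one, while Myh2/Myh4 and Myh1/Myh4 set a slower fast chain against the fastest and Actn2/Actn3 a shared form against a fast one. Tnnt1 was 0.661% to 1.62% of Tnnt3 with liraglutide and 0.759% to 1.35% with saline. Tnni1 was 0.269% to 0.618% of Tnni2 against 0.322% to 0.575%, and Tnnc1 was 0.922% to 2.62% of Tnnc2 against 1.44% to 2.33%. The slow forms of the essential light chain, the Z-disc and the myosin-binding protein were less rare, with Myl3 at 3.97% to 10.2% of Myl1 against 4.58% to 7.97%, Myoz2 at 3.14% to 6.64% of Myoz1 against 4.33% to 5.9%, and Mybpc1 at 19.6% to 27.2% of Mybpc2 against 21.8% to 25.8%. Liraglutide 2 had the lowest ratio in 10 of the 12 pairs and liraglutide 3 the highest in 8. Without liraglutide 2, the groups no longer overlapped for Myh2/Myh4 and Actn2/Actn3. The Myh2/Myh4 ratio was 5%, 3.52%, 5.21% and 5.72% in liraglutide 1 to 4 and 3.69% to 4.15% in the model group.

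**Figure D3:**
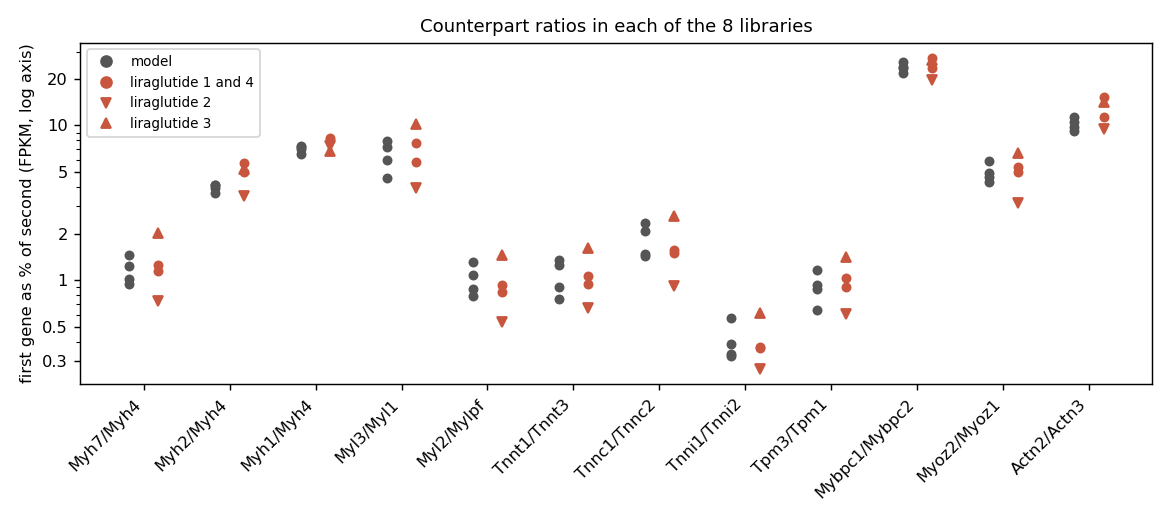
FPKM of the slow or slower form as a percent of its fast counterpart for 12 pairs, on a log axis, with 1 symbol per library; model in grey, liraglutide in red, with liraglutide 2 (downward triangle) and liraglutide 3 (upward triangle) marked. The groups overlap for all 12 pairs, and liraglutide 2 is lowest in 10 and liraglutide 3 highest in 8 of them.

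Fast troponin transcripts rose with liraglutide for the calcium-binding and inhibitory subunits. Counts of genes called here and below are to be read against 5.45% of all tested genes called higher, and 49.0% of those with a mean of at least 100 FPKM. Tnnc2, fast troponin C, stood at 11411, 12002, 10955 and 10672 FPKM in liraglutide 1 to 4 and at 9249.9, 9173, 9111 and 9338 FPKM in model 1 to 4, and the groups did not overlap. It rose 1.29-fold (log2 fold change 0.36 ± 0.0368 SE, edgeR adjusted p = 0.00114), a call held under all 21 alternatives with values from 0.17 to 0.39. Tnni2, fast troponin I, which blocks myosin binding at rest, stood at 10061, 10794, 9831 and 9605 FPKM against 8856, 8721, 8781 and 8575 FPKM, again without overlap, and rose 1.22-fold (0.28 ± 0.0375, adjusted p = 0.00278). That call ended with a gene length offset (0.091, adjusted p = 0.119). Tnnt3, fast troponin T, which ties the complex to tropomyosin, stood at 15197, 15930.4, 14575 and 13914 FPKM against 14942, 14681, 14619 and 14639 FPKM. Its groups overlapped (0.093 ± 0.0392, adjusted p = 0.162), although without liraglutide 4 it passed (adjusted p = 0.0365).

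The proportions of the fast troponin transcripts did not overlap between the groups. Tnnc2 was 75.1%, 75.3%, 75.2% and 76.7% of Tnnt3 FPKM in liraglutide 1 to 4 and 61.9%, 62.5%, 62.3% and 63.8% in model 1 to 4. The SD was 0.759 percentage points in the liraglutide and 0.812 in the model group (n = 4). Tnnc2 had risen without overlap and Tnnt3 had not been called, so this ratio is not separate support for a change. How often ratios of other abundant genes separate was not counted. With the gene length offset the log2 fold changes of Tnnc2 and Tnnt3 were 0.17 and -0.033. Tnni2 was 66.2% to 69% of Tnnt3 with liraglutide and 58.6% to 60.1% in the model group. Outside troponin, Acta1 was 216% to 233% of Myh4 with liraglutide and 179% to 201% in the model group, also without overlap. Mylpf was 290% to 314% of Myl1 against 286% to 305%, with overlap. These ratios were chosen after their values were seen and were given no test. Gene lengths were 693 bases for Tnnc2, 724 for Tnni2 and 1169 for Tnnt3, and the length trend described below was not removed from these ratios.

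The start regions of slow and fast troponin genes and of Mylpf are shown because the slow genes moved together among mice and Tnnc2 and Mylpf were called higher. They are the 250 bases before the annotated start, 5′ to 3′, from RefSeq on GRCm38.p6, where 25 of the 32 genes had an entry (not Tnnt3, Tnni2, Actn3, Mylk2, Myoz1, Myot and Tcap). Capitals mark E-boxes (CANNTG, bound by myogenic factors such as MyoD, the same on both strands) and MCAT elements (CATTCC or its complement GGAATG, bound by TEAD factors). The windows lie at chr14:31208062-31208311 (+ strand), chr7:4515976-4516225 (- strand), chr2:164779735-164779984 (- strand) and chr7:127211358-127211607 (+ strand).
Tnnc1: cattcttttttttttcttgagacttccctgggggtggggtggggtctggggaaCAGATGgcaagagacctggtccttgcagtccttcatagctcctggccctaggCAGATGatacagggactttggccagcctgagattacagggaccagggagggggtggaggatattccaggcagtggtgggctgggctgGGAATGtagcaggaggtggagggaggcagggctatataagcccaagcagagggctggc
Tnnt1: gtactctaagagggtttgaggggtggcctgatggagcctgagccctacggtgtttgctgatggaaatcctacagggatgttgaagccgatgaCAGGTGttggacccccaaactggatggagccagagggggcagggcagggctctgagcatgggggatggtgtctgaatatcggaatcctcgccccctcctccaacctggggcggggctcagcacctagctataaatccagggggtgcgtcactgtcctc
Tnnc2: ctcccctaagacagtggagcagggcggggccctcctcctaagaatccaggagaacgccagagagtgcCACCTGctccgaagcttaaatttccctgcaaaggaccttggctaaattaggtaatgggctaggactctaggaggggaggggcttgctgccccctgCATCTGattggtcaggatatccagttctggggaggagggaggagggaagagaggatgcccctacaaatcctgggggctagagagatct
Mylpf: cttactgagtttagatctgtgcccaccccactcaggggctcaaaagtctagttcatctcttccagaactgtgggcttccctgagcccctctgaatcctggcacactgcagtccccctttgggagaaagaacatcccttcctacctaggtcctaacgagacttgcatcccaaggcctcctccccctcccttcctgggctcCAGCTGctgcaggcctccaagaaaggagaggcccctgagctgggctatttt

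Tnnc1 held 2 E-boxes and 1 MCAT element, Tnnt1 1 E-box, Tnnc2 2 E-boxes and Mylpf 1 E-box. Some genes have several annotated starts, and a gene is counted when any of its windows holds the motif. An E-box was present in all 11 slow members, in 6 of 8 fast members and in 4 of 5 shared members with an entry, against 69.3% of all 27025 genes with windows of this length, counted alike. MCAT elements were in 3 slow, 5 fast and 1 shared member, against 14.4% of all genes. The MEF2 motif, searched on both strands as its degenerate consensus, was in 1 slow, 2 fast and 0 shared members, against 3.42%. Motifs were searched separately. These are matches of letters only.

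Among light chains, Mylpf rose modestly. This fast regulatory light chain stood at 9734, 9958, 8934 and 9163 FPKM in liraglutide 1 to 4 and at 8677, 8750.4, 8654 and 9011 FPKM in model 1 to 4. Liraglutide 3 lay below model 4, so the FPKM ranges overlapped, and the fold was 1.13 (log2 fold change 0.18 ± 0.0358 SE, edgeR adjusted p = 0.0138). With a gene length offset the value was 0.0067 (adjusted p = 0.93). Myl1, whose gene yields both fast essential light chains from separate starts, stood at 2890.3 to 3359.6 against 2843 to 3063 FPKM and did not pass (0.15 ± 0.0524, adjusted p = 0.11). Mylk2, the skeletal kinase that phosphorylates the regulatory light chain, stood at 508 to 678 against 524 to 675 FPKM (adjusted p = 0.895).

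Thin filament genes rose in 2 of 4 cases outside troponin. Acta1, skeletal actin and the most abundant of the 32 genes per length, stood at 22313, 24046, 23352 and 23579.6 FPKM with liraglutide and at 21517, 20281, 20547 and 20701 FPKM with saline, without overlap. It rose 1.18-fold (0.24 ± 0.0325 SE, edgeR adjusted p = 0.00278). Tpm2, beta-tropomyosin, found in both slow and fast fibres, stood at 1899, 1758, 1848 and 1825 FPKM against 1662, 1663, 1655 and 1749.7 FPKM, also without overlap, and rose 1.15-fold (0.20 ± 0.0382, adjusted p = 0.0122). Tpm1, alpha-tropomyosin of fast fibres and of many other cells, stood at 2824 to 3375 against 3063 to 3140.5 FPKM (adjusted p = 0.419). Of the thick filament's binding proteins, Mybpc2, the fast form, stood at 2028 to 2355 against 2068 to 2353 FPKM (adjusted p = 0.498).

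**Figure D4:**
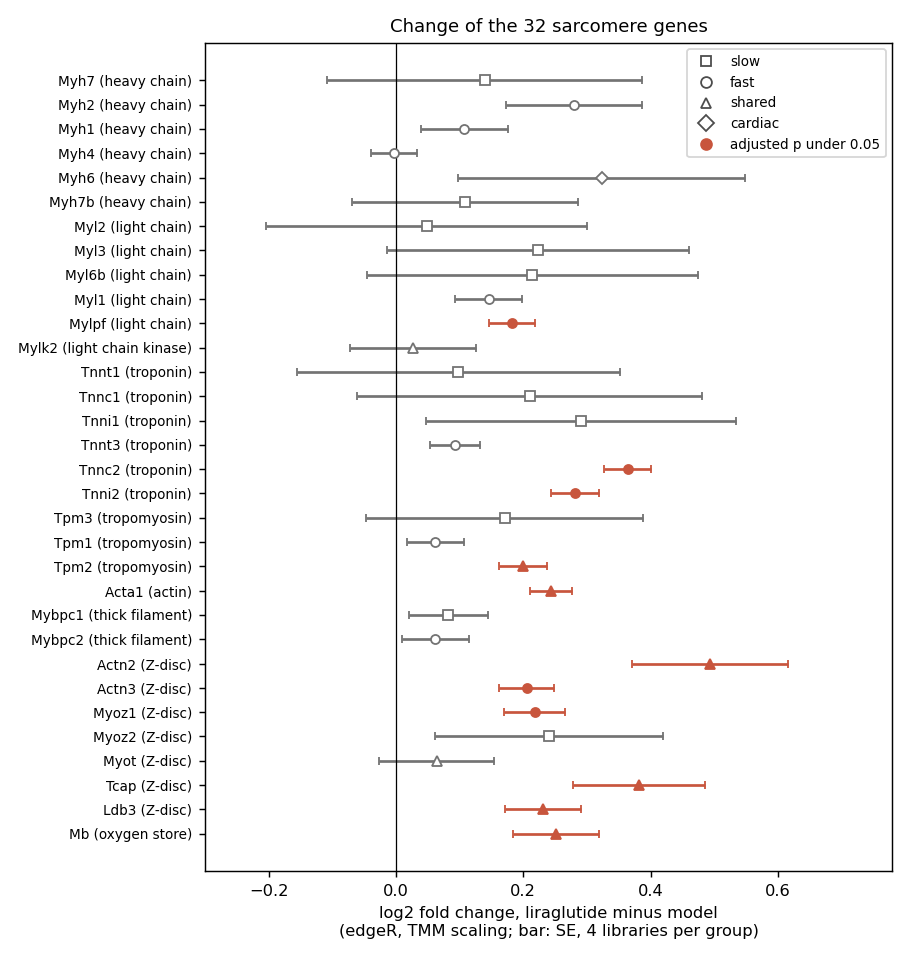
Log2 fold change, liraglutide minus model, of the 32 genes ordered by role, from edgeR with TMM scaling (bars: SE, 4 libraries per group). Filled red symbols passed an adjusted p of 0.05, squares are slow, circles fast, triangles shared and the diamond cardiac. The 11 filled symbols lie between 0.18 and 0.49, and bars are widest for the slow genes.

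Z-disc genes rose in 5 of 7 cases, by 1.15-fold to 1.41-fold, where 49.0% of all genes with a mean of at least 100 FPKM were called higher. Actn2, the alpha-actinin of all fibres that crosslinks actin at the Z-disc, stood at 452, 388, 582 and 564 FPKM in liraglutide 1 to 4 and at 368, 343, 379 and 399 FPKM in model 1 to 4. Liraglutide 2 lay within the model range. Its log2 fold change of 0.49 ± 0.122 (SE, edgeR adjusted p = 0.0327) was the largest of the 32, and without liraglutide 3, liraglutide 4 or any 1 model library it did not pass (adjusted p 0.0622 to 0.0914). Actn3, the alpha-actinin of fast fibres, stood at 3992, 4090.1, 4128 and 3711 FPKM against 3747, 3694, 3571 and 3543 FPKM and rose 1.15-fold (0.21 ± 0.0429, adjusted p = 0.0172), with liraglutide 4 inside the model range. This call ended without model 3 or model 4 (adjusted p 0.0545 to 0.0549).

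Tcap, telethonin, which caps titin at the Z-disc, stood at 2318, 2555, 2978 and 2499 FPKM with liraglutide and at 2259, 2166, 2247 and 1709 FPKM with saline, without overlap. It rose 1.3-fold (0.38 ± 0.104 SE, edgeR adjusted p = 0.046), and the call ended without any 1 library other than liraglutide 1 (adjusted p 0.0636 to 0.0911). Ldb3, also called ZASP or Cypher, a PDZ protein that binds alpha-actinin, stood at 353, 359, 409 and 401 FPKM against 337, 348, 351 and 330.2 FPKM, without overlap (0.23 ± 0.0595, adjusted p = 0.0385), a call that ended without liraglutide 3, liraglutide 4 or any 1 model library (adjusted p 0.0609 to 0.0991). Myoz1, the fast calsarcin, stood at 1485, 1655, 1540.3 and 1424 FPKM against 1428, 1384, 1371 and 1348 FPKM. Liraglutide 4 lay just under model 1 (0.22 ± 0.0477, adjusted p = 0.0207), and the call ended without model 2, model 3 or model 4 (adjusted p 0.0555 to 0.0618). Myot, myotilin, stood at 616 to 807 against 649.8 to 720.0 FPKM (adjusted p = 0.708).

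Mb, myoglobin, the oxygen store that is richest in slow and 2A fibres, stood at 2099, 1941, 2213 and 2293 FPKM in liraglutide 1 to 4 and at 1790.0, 1765, 2045 and 1968 FPKM in model 1 to 4. Liraglutide 2 was below model 3 and model 4. It rose 1.19-fold (0.25 ± 0.0676 SE, edgeR adjusted p = 0.0438), and the call ended without any 1 library other than liraglutide 2 and model 3 (adjusted p 0.0682 to 0.118). Its lowest library was model 2 and its highest liraglutide 4, where those of Myh7 were liraglutide 2 and liraglutide 3.

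In all, 11 of the 32 genes rose and 0 fell: Tnnc2, Tnni2, Mylpf, Acta1, Tpm2, Actn2, Actn3, Tcap, Ldb3, Myoz1 and Mb. Of all tested genes 10.3% were called, 5.45% higher and 4.83% lower. The median log2 fold change was 0.20 over the 32 genes and -0.012 over all tested genes. It was 0.19 over the 490 tested genes with a mean of at least 100 FPKM, close to that of the 32. The median of the 32 was 0.10 without liraglutide 3, where 9 were negative, 0.13 with the length offset, 0.099 by limma on log2(FPKM + 1) and 0.0095 under quantile normalization, where 14 were negative. By class, 5 of 12 fast members rose, 0 of 11 slow members and 6 of 8 shared members, and whether the classes differ was not tested. FPKM of all liraglutide libraries exceeded all model libraries for 6 of the 32 (Tnnc2, Tnni2, Acta1, Tpm2, Tcap and Ldb3), against 4.91% of all tested genes. It lay below all model libraries for 0, against 15.4%. All 6 had a mean of at least 100 FPKM, where 201 of 490 tested genes lay wholly above and 30 wholly below. Among the 490 tested genes with a mean of at least 100 FPKM, a level set after values were seen, 49.0% were called higher and 3.06% lower, and among the 25 of the 32 genes at that level 11 were (44%). That share is close to the tissue's abundant transcripts as a whole, so the count is no result about the sarcomere genes in particular. Single libraries moved it as well: omission of liraglutide 1, 2, 3 and 4 in turn left 10, 11, 7 and 8 genes called higher, and omission of model 1, 2, 3 and 4 left 7, 6, 6 and 5. Without liraglutide 2 and model 3 together 8 were.

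Gene length moved with the result too. The genes that rose had a median length of 1294 bases and those that were not called 2948 bases. Across the 12963 tested genes the rank correlation between length and a library's deviation from the mean of the libraries was -0.27 to -0.0198 in the liraglutide and 0.164 to 0.234 in the model libraries; genes are not independent replicates. With an offset that removes each library's smooth trend on length, 5 of the 32 genes were called higher (Tnnc2, Acta1, Tpm2, Actn3 and Ldb3). Their log2 fold changes were then 0.17, 0.16, 0.18, 0.20 and 0.30. Actn2 kept its size (0.49, adjusted p = 0.0512), while the values of Tcap, Mb and Myoz1 were 0.23, 0.12 and 0.11 (adjusted p = 0.228, 0.365 and 0.148). With raw library sizes 4 were called higher (Tnnc2, Tnni2, Acta1 and Actn2), and limma on log2(FPKM + 1) called Tnnc2 and Tnni2. The cause of the length trend was not tested.

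**Figure D5:**
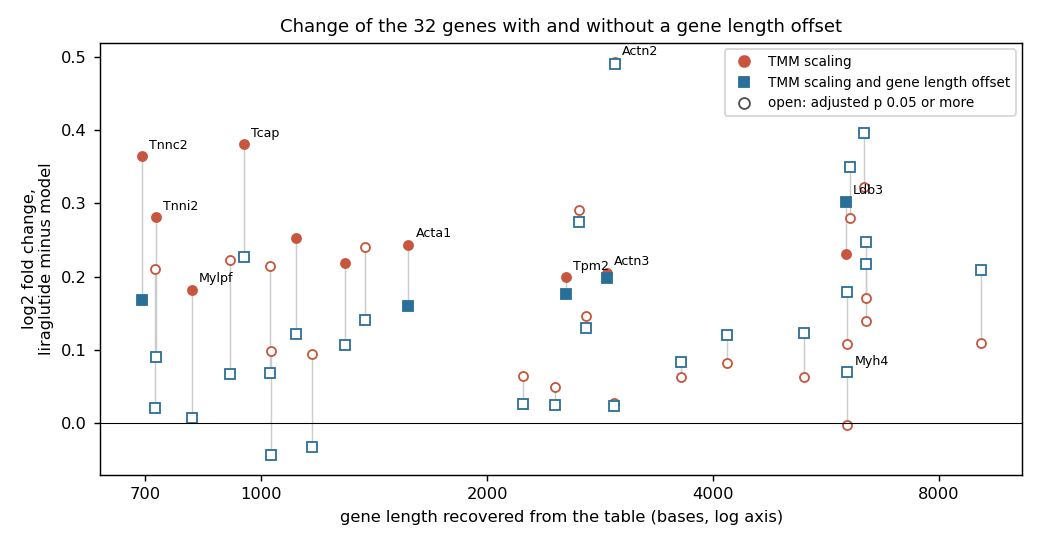
Log2 fold change of the 32 genes against gene length (log axis), with TMM scaling alone (red circles) and with the length offset added (blue squares), joined per gene; filled symbols passed an adjusted p of 0.05. Short genes such as Tnni2 and Mylpf move down under the offset and long genes such as Ldb3 and Myh4 move up.

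Of 32 other sarcomere, calcium handling and fibre type genes listed, 30 were tested, and 4 rose and 0 fell (median log2 fold change 0.13), where 5.45% of all tested genes rose and 4.83% fell. They were Lmod3, a leiomodin that nucleates thin filaments, at 37.3 ± 1.19 against 33.2 ± 1.71 FPKM (mean and SD, n = 4; fold 1.19, edgeR adjusted p = 0.0204), Atp2a1, the calcium pump SERCA1 of fast fibres, at 12146 ± 407 against 11709.8 ± 78.1 FPKM (fold 1.09, adjusted p = 0.023), Tmod4, a cap of the thin filament's slow-growing end, at 149 ± 5.73 against 139 ± 4.23 FPKM (fold 1.13, adjusted p = 0.0282), and Smtnl1, smoothelin-like 1, at 40.8 ± 4.3 against 34.7 ± 1.44 FPKM (fold 1.24, adjusted p = 0.0428). With raw library sizes 0 of the 30 passed, and with the gene length offset 2 did (Atp2a1 and Tmod4). These calls also ended on omission of single libraries, 3 for Lmod3 (model 1, 3 and 4, adjusted p up to 0.0603), 4 for Atp2a1 (each model library, up to 0.0783), 5 for Tmod4 (liraglutide 2 and 3, model 1, 2 and 4, up to 0.0831) and 7 for Smtnl1 (all but liraglutide 2, up to 0.106).

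The stretch-responsive genes Csrp3 (muscle LIM protein) and Ankrd2 had the largest differences of that list without passing. Csrp3 stood at 178, 88.9, 275 and 280.4 FPKM in liraglutide 1 to 4 and at 102, 95.7, 85.3 and 129 FPKM in model 1 to 4 (log2 fold change 1.08 ± 0.311 SE, edgeR adjusted p = 0.0558). Ankrd2 stood at 173, 112, 292 and 265 FPKM against 129, 126, 109 and 126 FPKM (0.86 ± 0.253, adjusted p = 0.0592). In both genes liraglutide 2 lay within the model range, as it did for Actn2. Both passed with upper quartile factors and with DESeq2 on all 8 libraries, and without liraglutide 2 (adjusted p = 0.00416 and 0.00579). Without liraglutide 2, 10 of the 30 genes were called higher, as were 610 of all 13067 genes then tested. Calls over this list as a whole were not counted for the other single omissions. Atp2a2, the slow fibre calcium pump SERCA2, named after its values were seen, ran from 69.7 FPKM in liraglutide 2 to 133 in liraglutide 3 and from 72.3 FPKM in model 2 to 139 in model 4, the same extremes within each group as Tnnt1 and Tnnc1 (adjusted p = 0.914). Myh3, Myh8 and Myh13 stood at 1.13 to 2.91, 1.02 to 1.43 and 0.451 to 0.851 FPKM over the 8 libraries and were not called.

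Of 32 factors known to set fibre type, 2 rose and 3 fell (median log2 fold change -0.0031). The share that rose, 6.25%, was close to the 5.45% of all tested genes. The 3 of 32 that fell stand beside 4.83% of all tested genes, and whether these shares differ was not tested. Eya4, a transcriptional coactivator, fell to 0.813 times the model level, with 6.62 ± 0.241 against 8.58 ± 0.336 FPKM (mean and SD, n = 4; edgeR adjusted p = 0.0101). Mef2a, a MADS-box activator of muscle genes, fell to 0.871 times the model level, with 16.2 ± 0.481 against 19.7 ± 0.87 FPKM (adjusted p = 0.0248), and Vgll3, a TEAD cofactor, fell to 0.624 times the model level, with 1.46 ± 0.333 against 2.47 ± 0.285 FPKM (adjusted p = 0.0249). Myod1, the myogenic factor more abundant in fast muscle, rose 1.69-fold, with 6.54 ± 1.74 against 4.07 ± 0.249 FPKM (adjusted p = 0.0249). The nuclear receptor Esrra, at 37.8 ± 3.63 against 33.1 ± 2.15 FPKM with overlapping groups, was the other gene that rose (fold 1.2, adjusted p = 0.0456), and its call ended under 14 of 21 alternatives, among them omission of liraglutide 1, 2 or 3 or of model 1, 2 or 4 (adjusted p up to 0.141 over the 14). With the gene length offset Myod1 alone passed. Calls of Mef2a, Vgll3 and Myod1 ended on omission of 6, 6 and 5 single libraries (Mef2a all but liraglutide 4 and model 3, Vgll3 all but liraglutide 3 and model 3, Myod1 liraglutide 3 and each model library, adjusted p up to 0.0788).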

How the data were processed

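RNA-seq of mouse skeletal muscle was analysed in 8 libraries, 4 per group. The authors deposited, per the file headers, raw counts and FPKM values for 22173 genes. The submitters' processing notes list HISAT2, HTSeq, Cufflinks, DESeq and Trimmomatic (no versions), and the human build GRCh38 although the gene symbols are mouse, so no coordinates are taken from the files, and those of the promoter windows are RefSeq's. Libraries were made with a stranded mRNA kit, per the labels' protocols, and whether counting used strand is not given in the sources used here. The deposited FPKM equalled count over library total over a whole-number length for 17484 of 17484 genes with a count, within 0.01 base, and that length is the gene length used here. Replicates are separate mice by their animal codes. A column with a misspelt group was matched by its code.

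Counts were tested with edgeR 4.0.16 (R 4.3.3; quasi-likelihood, TMM, filterByExpr with minimum count 10; 12963 genes), Benjamini-Hochberg adjusted over all tested genes. The biological coefficient of variation, common to all genes, was 13.7%. The fit was also run on simulated counts with the same spread for all genes and no length trend. The changes planted there were larger than those of the called members, so that run does not bear on their calls. Members, gene lists, tests and alternatives were chosen with earlier results of these data known. All members are accounted for. Heavy chains and called members are given per library, and of the other lists the 6 and 4 genes with the smallest p were named. Alternatives were other scalings and filters, DESeq2 1.42.0, limma 3.58.1 on log2 FPKM (pseudocount 1 or 0.1), a loess offset on gene length (span 0.5), the replicate block and omission of libraries. Shares and ratios were given no p.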

Additional observations from a re-analysis of the deposited data

Results flagged for a closer look

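In groups of 4 libraries, a library was looked at again when its distance to the nearest other library exceeded Dixon's 95% critical share of the group's range. Of 96 groups examined (32 FPKM values, 4 heavy chain shares and 12 ratios in 2 groups), 3 met this, and chance gives about 1 in 20. Myh6 stood at 0.367 FPKM in model 2 against 0.606 to 0.636 in the other model libraries. Tpm2 stood at 1749.7 FPKM in model 4 against 1655 to 1663, and Tcap at 1709 FPKM in model 4 against 2166 to 2259. Tcap lost its call without model 4 as without most other libraries, while Tpm2 kept its call without model 4.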

How the results depend on the processing

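Of 231 values of the 11 called genes under 21 alternatives each, 149 kept direction and call, 80 lost the call and 2 reversed. Against 11 genes called higher, raw library sizes gave 4, limma on log2(FPKM + 1) or log2(FPKM + 0.1) 2, quantile normalization 1 (with Myh4 the 1 gene lower), the length offset 5 and omission of single libraries 5 to 11. Over all genes, 1333 were called, against 776 with quantile normalization, 773 with the length offset, 697 without liraglutide 2 and model 3 together and 615 to 1231 without single libraries. Raw library sizes moved the split from 707 higher and 626 lower to 338 and 1241, with a median log2 fold change over all genes of -0.088. Quantile normalization made 14 of the 32 genes negative, among them Mylpf (-0.031), Myoz1 (-0.037), Myh1 (-0.031) and Myh7 (-0.0625). Myh7 was also -0.000981 and -0.00139 by limma on FPKM, and -0.154 to 0.329 without single libraries. Myh4 was 0.00342 with RLE factors and with DESeq2, 0.0205 with upper quartile factors, 0.0693 with the length offset and -0.0211 to 0.0128 without single libraries, and Myh7b was -0.021 to 0.189 without them. Under quantile normalization each rank holds a fixed value, so genes that keep or exchange ranks take 0 or mirrored values. Acta1 and Actn3 stood at 0 there, Tnni2 at 0.031 beside Mylpf at -0.031, and Tnnc2 at 0.18 beside Myh4 at -0.18. Such values do not measure the size of a change. The cause of the other shifts was not tested.

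Replicate numbers are shared by the groups. Of 4 same-number pairs, 2 correlated over 0.1 (-0.0275 to 0.149), and 5 of 8 samples correlated best with their own number. Such weak correlations among so few libraries cannot decide whether a shared number marks a pairing or a batch. With the replicate block 11 of the 32 genes and 1035 of all genes were called, and with the block and the length offset together 4 and 652, with Myh4 at 0.0687. Most of the 32 genes are abundant, but Myh6 had 35 to 95 counts, Myh7b 82 to 172 and Myl6b 126 to 299. The effect of depth was not tested.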
